A study of Zea mays with 16 samples.

Results

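The maize (Zea mays) recombinant inbred line RIL78, which the submitters class as drought tolerant, was followed in kernels taken 10 days after pollination from water-stressed and from well watered plants. Its data are the 4 arrays that the labels assign to the second tolerant line, out of 16 arrays in the series. On each array RNA of stressed kernels competed, in one dye, with RNA of fully irrigated kernels of that line in the other. Stressed kernels carried Cy5 on replicates 1 and 2 and Cy3 on replicates 3 and 4. The other 12 arrays are 4 each of RIL60 (tolerant), RIL66 and RIL68 (both susceptible), also with stress in Cy5 on 2 arrays and in Cy3 on 2, and served as the comparison. In RIL66 the orientations were the reverse, with stress in Cy3 on replicates 1 and 2.

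Per the labels' protocols, plants of both treatments stood in an open field, in 2 randomised blocks per treatment. Water was withheld from 3 weeks before flowering, and soil moisture was held near 16% of dry weight under stress against near 30% with full irrigation. Poly(A) RNA was purified from RNA of pools of 6 to 9 kernels from 3 ears. A recombinant inbred line is fixed by repeated selfing, so RIL78 stands for 1 genotype. The labels do not say whether the 4 arrays used separate pools, so the p-values below measure a spread between arrays, which may be technical. That spread is pooled over the arrays of all lines and is not that of RIL78 alone. An SE can therefore be small beside the SD of the RIL78 arrays. A pooled kernel holds embryo, endosperm and maternal pericarp, and a smaller share of a tissue and less RNA per cell cannot be told apart in it.

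At this stage a maize kernel is leaving early seed set and entering grain filling: the endosperm, the storage tissue fed by sucrose from the mother plant, is forming its cells and beginning to build starch and storage proteins. Water deficit around flowering is known to lower the sugar supply to young kernels, to raise abscisic acid and to cause some kernels to abort. Plant tissues short of water commonly change transcripts of sugar metabolism, protective proteins and stress signalling. Which of these the array reports on could not be read here, since the gene table used (49888 rows) held none of the 1000 probe identifiers. Transcripts are therefore given by probe identifier, with no gene name, role or sequence.

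Each array carried 1000 probes with 2 spots each. Signal differed between the RIL78 arrays. The stress channel was above its local background for 28.2% of probes on replicate 1, 67% on replicate 2, 64.1% on replicate 3 and 40.6% on replicate 4, and the well watered channel for 28.3%, 66.9%, 66% and 43.4%. Here a probe counts as above background when its spots exceed it by 2 background SDs on average. The log2 ratios of duplicate spots correlated at 0.25, 0.79, 0.84 and 0.55 in the same order, so replicate 1 was the noisiest of the 4. Across the 1000 probes, the ratios of replicates 1 and 2 correlated at 0.41 and those of 3 and 4 at 0.65, whereas arrays of opposite dye orientation correlated at -0.08 to 0.11. These are descriptions over probes, and each pair of one orientation also shares its dyes. All 4 arrays carry the same day in the file headers, together with 3 arrays of RIL60.

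Of the 1000 probes tested, 75 (7.50%) were called as different between stressed and well watered RIL78 kernels. Under stress 42 were higher (4.20%) and 33 were lower (3.30%). The change of a probe is its log2 ratio of stress over well watered in a limma fit to all 16 arrays with a dye term, and a probe was called at an adjusted p under 0.05. Most changes were modest. The median change was 0.65 among the probes that rose and -0.56 among those that fell, against a median size of 0.16 over all 1000 probes and a median change of -0.0016. Of the rises, 15 were under 1.5-fold, 24 between 1.5-fold and 2-fold and 3 at 2-fold or more. Of the falls, 18 were under 1.5-fold, 11 between 1.5-fold and 2-fold and 4 at 2-fold or more. These 7 were 0.700% of the probes tested. The smallest called rise was 0.36 and the smallest called fall -0.43. At an unadjusted p under 0.05 there were 212 probes.

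The sign of the ratio was the same on all 4 arrays for 63 of the 75 called probes, 32 that rose and 31 that fell. Over all 1000 probes this held for 207, or 20.7%, of which 112 lay above 0 and 95 below. The 12 largest rises and 12 largest falls of one sign are described next.

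Only 3 probes rose by 2-fold or more under the main processing. With no background correction the log2 rises of a116pe0174, a116pe0970 and a116pe0942 were 0.79, 1.05 and 0.53. With the deposited ratios they were 1.001, 1.15 and 0.67. Probe a116pe0174 had log2 ratios of 1.31, 1.07, 1.75 and 1.70 on replicates 1 to 4. All arrays lay well above 0, with the Cy3 orientation somewhat higher. The fitted rise was 1.46 (SE 0.26, SD 0.32, n = 4 arrays), or 2.74-fold, with a limma adjusted p of 0.00192. Its stress level was 11.02 ± 0.53 (log2 intensity, SD, n = 4) against 9.56 ± 0.71 well watered, and it was above background on 4 arrays under stress and on 2 well watered.

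Probe a116pe0970 stood at 1.99 and 2.39 with stress in Cy5 and at 0.79 and 0.55 with stress in Cy3. It rose on every array, but by far more in one orientation than in the other, and its dye effect was itself called (0.76, limma adjusted p = 0.00969). The fitted rise was 1.43 (SE 0.20, SD 0.90, n = 4), or 2.69-fold, with an adjusted p of 0.000163, and the probe was above background in both conditions on all 4 arrays. Its level went from 11.06 ± 0.71 well watered to 12.49 ± 0.78 under stress.

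Probe a116pe0942 was the most even of the large rises, with ratios of 0.92, 1.21, 1.01 and 0.99. The arrays lay within a narrow band and showed no dye effect (0.03, limma adjusted p = 0.923). It rose by 1.03 (SE 0.14, SD 0.12, n = 4), or 2.05-fold, with an adjusted p of 0.00014. Its duplicate spots on replicate 1 read 0.17 and 1.67, wide apart, and lay closer together on the other arrays.

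The next rises, between 1.65-fold and 1.79-fold, differed in the dye orientation in which they were larger. Probe a116pe0475 had ratios of 0.51, 0.53, 1.02 and 1.05 and rose by 0.78 (SE 0.13, limma adjusted p = 0.000779). Probe a116pe0034 had 0.20, 0.51, 1.13 and 1.25 and rose by 0.77 (SE 0.14, adjusted p = 0.00161). Both were larger with stress in Cy3, while a116pe0507, at 1.10, 1.45, 0.32 and 0.39, was larger with stress in Cy5 (0.82, SE 0.14, adjusted p = 0.0016). All 3 were above background in both conditions on every array, and they kept their calls when any RIL78 array was left out.

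The other named rises lost their calls when some single array was left out. Probe a116pe0049, the brightest of those named at a stress level of 13.91 ± 0.48, had ratios of 0.43, 0.40, 0.64 and 1.89. Replicate 4 lay far above the other arrays, and without it the rise of 0.84 (SE 0.18, limma adjusted p = 0.00754) became 0.54 with an adjusted p of 0.0867. Probe a116pe0028 had 0.22 and 0.08 with stress in Cy5 and 1.39 and 1.62 in Cy3, a rise of 0.83 (SE 0.16, adjusted p = 0.00304) seen almost wholly in one orientation, where the adjusted p without replicate 4 was 0.0516. Probe a116pe0388 had 0.52, 0.08, 1.04 and 1.33 (rise 0.74, adjusted p = 0.00421), and without replicate 4 its adjusted p was 0.054. The 3 remaining named rises also lost their calls with an array left out, though their changes in those fits stayed between 0.60 and 0.71. These were a116pe0872 (0.76, adjusted p = 0.0153), with adjusted p of 0.0746 and 0.0702 without replicates 2 and 3, a116pe0434 (0.72, adjusted p = 0.00936), with 0.0639 and 0.0778 without replicates 3 and 4, and a116pe0094 (0.72, adjusted p = 0.0253), with 0.126 and 0.165 without replicates 1 and 4. With the excluded spots kept in, a116pe0434 had an adjusted p of 0.0749.

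The largest change in RIL78 kernels was a fall. Probe a116pe0746 had log2 ratios of -2.11, -3.95, -4.13 and -2.24 on replicates 1 to 4. Every array and all 8 spots showed less signal under stress, most on replicates 2 and 3. The mean raw intensity of its spots on replicate 3 was 2178 under stress over a local background of 787, and 13704 well watered over a background of 586. This was the widest raw gap of the 4 arrays. On replicates 1, 2 and 4 the stress intensities were 3018, 1603 and 1689, over backgrounds of 1160, 588 and 576. The well watered ones were 5242, 8426 and 2861, over backgrounds of 1221, 393 and 617. The fitted fall was -3.11 (SE 0.27, SD 1.08, n = 4), with a limma adjusted p of 3.48e-07.

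The well watered level of a116pe0746 was 11.59 ± 0.60 and above background on all 4 arrays, whereas the stress level, 8.49 ± 0.63, was above background on none. Stressed kernels therefore give only an approximate bound. For it, the stress signal of each array was set to the lowest level above background there, or to its own level if higher. Averaged over the 4 arrays, the signal was then 6.79-fold lower under stress. A signal not above background can lie above that lowest level, so the figure is not a strict minimum. That figure holds for the mean under the main processing and not for each array. In log2 the bound was 2.76. The fitted change was smaller in size than this bound with no background correction (-1.72) and with the deposited ratios (-2.19). Of the 1000 probes, a116pe0746 was the only one above background on 4 arrays well watered and on 0 under stress, and no probe showed the opposite pattern.

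Probe a116pe0765 followed with ratios of -1.66, -1.96, -2.47 and -1.69. All arrays lay far below 0, lowest on replicate 3, and the dye effect was not called (0.13, limma adjusted p = 0.679). The fall was -1.95 (SE 0.17, SD 0.38, n = 4), or 3.86-fold, with an adjusted p of 3.48e-07. It was -1.04 with no background correction and -1.35 with the deposited ratios. The level went from 11.12 ± 0.42 well watered to 9.17 ± 0.57 under stress, where 2 of 4 arrays were above background.

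Probe a116pe0649 read -0.85, -1.005, -1.65 and -0.99, lowest on replicate 3. It fell by 1.12 on the log2 scale, or 2.18-fold (SE 0.14, SD 0.36, n = 4, limma adjusted p = 7.01e-05). The fitted change was -0.64 with no background correction and -0.79 with the deposited ratios. Again all well watered channels but only 2 of 4 stress channels were above background.

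**Figure D1:**
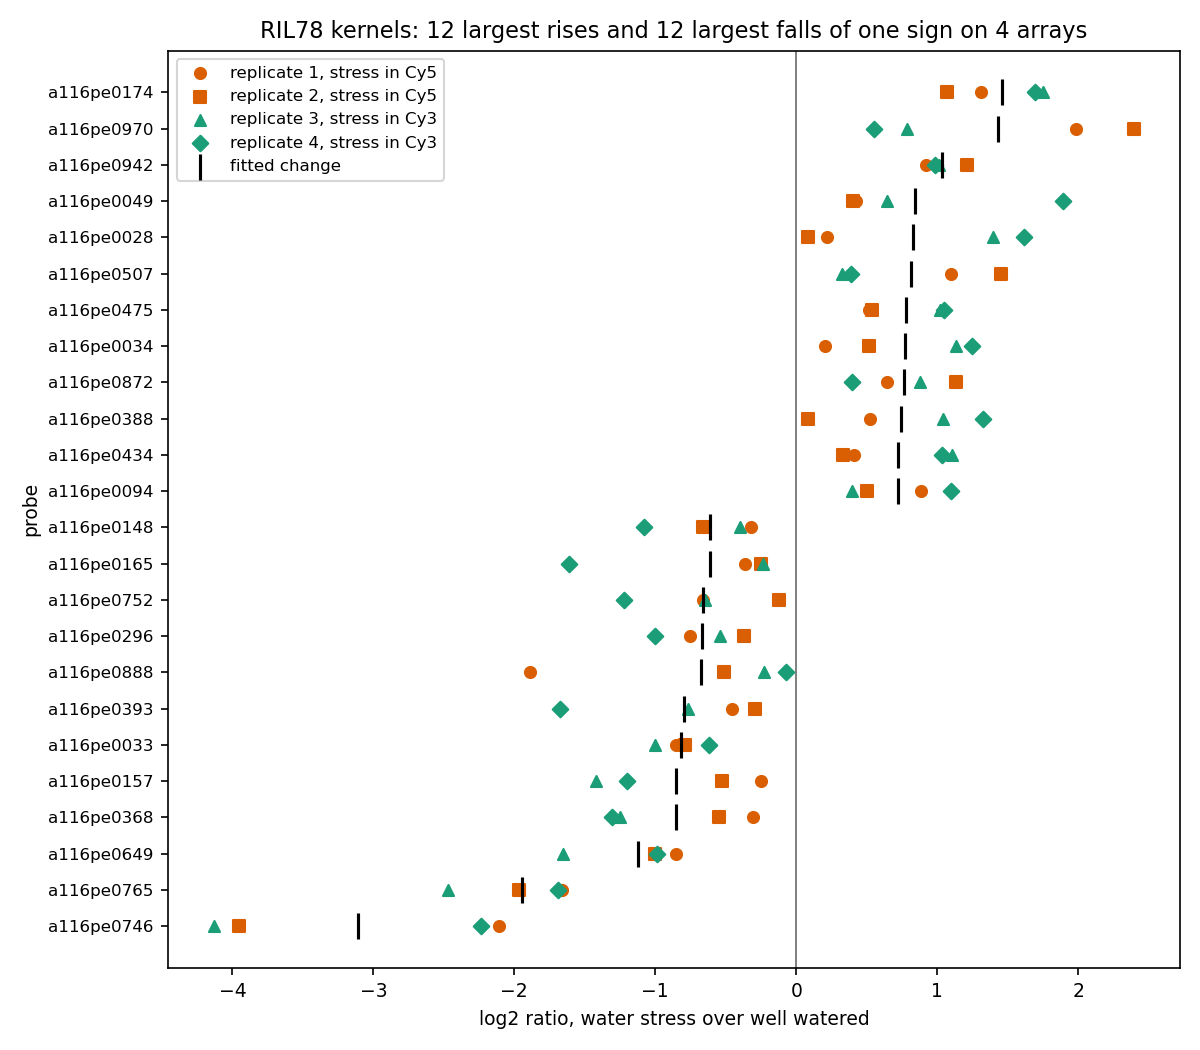
The 12 largest rises and 12 largest falls of one sign in RIL78 kernels, as log2 ratio of stress over well watered (horizontal) for each probe (vertical), with one symbol per array, colour for the dye of the stressed kernels and a bar for the fitted change. Probes such as a116pe0942 (0.92 to 1.21) have their arrays together, while a116pe0970 and a116pe0028 split by colour and a116pe0049 has replicate 4 alone at 1.89.

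Among the smaller falls, a116pe0033 was the most even, at -0.85, -0.79, -1.002 and -0.62 (fall -0.82, SE 0.15, SD 0.16, limma adjusted p = 0.00195). It was dim, above background on 1 array under stress and on 2 well watered. Probe a116pe0368 read -0.31, -0.55, -1.25 and -1.31 (fall -0.85, SE 0.13, adjusted p = 0.000583) and a116pe0296 read -0.76, -0.37, -0.54 and -0.999 (fall -0.67, SE 0.12, adjusted p = 0.00161). Probe a116pe0393 read -0.46, -0.29, -0.77 and -1.68, a fall of -0.80 (adjusted p = 0.00192). Its size leaned on replicate 4, without which it was -0.57. These 4 kept their calls without any of the RIL78 arrays in turn.

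The other 5 named falls did not. Probe a116pe0165 read -0.36, -0.25, -0.23 and -1.61, and replicate 4 made the fall: -0.62 (SE 0.16, limma adjusted p = 0.0268) with all arrays against -0.31 (adjusted p = 0.272) without it. The duplicate spots of that array read -0.38 and -2.84, and neither channel was above background there. Without replicate 1 the adjusted p of a116pe0165 was 0.069, and with no dye term it was 0.056.

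In a116pe0888 the low array was replicate 1, the noisiest, with ratios of -1.89, -0.51, -0.23 and -0.07. The fall of -0.68 (SE 0.19, limma adjusted p = 0.0313) shrank to -0.31 (adjusted p = 0.334) without replicate 1, and the adjusted p was 0.0601 and 0.054 without replicates 3 and 4. Probe a116pe0157 (-0.85, adjusted p = 0.0087) had adjusted p of 0.0639 and 0.0637 without replicates 3 and 4. Without replicate 4, a116pe0752 (-0.66, adjusted p = 0.00593) had 0.0678 and a116pe0148 (-0.61, adjusted p = 0.0137) had 0.137, and the latter also missed with no background correction (0.0539). Scaling the spread of the arrays ended the calls of a116pe0094, a116pe0434, a116pe0872, a116pe0148, a116pe0165 and a116pe0888 (adjusted p from 0.0589 to 0.229), and a116pe0888 also missed with array weights, median centring or no dye term (0.0873, 0.0553 and 0.081).

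Changes were called mainly among bright probes. When the 1000 probes were ranked by mean level, 7 of the 333 dimmest, 18 of the 334 in the middle and 50 of the 333 brightest were called. The 75 had a median level of 10.54 against 9.37 over all probes. Both conditions were above background on all 4 arrays for 29 of the 75 (21 that rose and 8 that fell) and for 200 of the 1000. Fewer arrays were above background under stress than well watered for 16 called probes, all of which fell, and the reverse held for 13, all of which rose. Both the background counts and the ratios come from the same intensities, so this split largely follows from the calls. One called probe, a116pe0398, picked out after its values were seen, was above background in neither condition on any array (0.50, limma adjusted p = 0.0313, levels 8.89 and 8.40), so its call compares signals within the background range. Over all probes, 209 were above background in neither condition on any array.

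**Figure D2:**
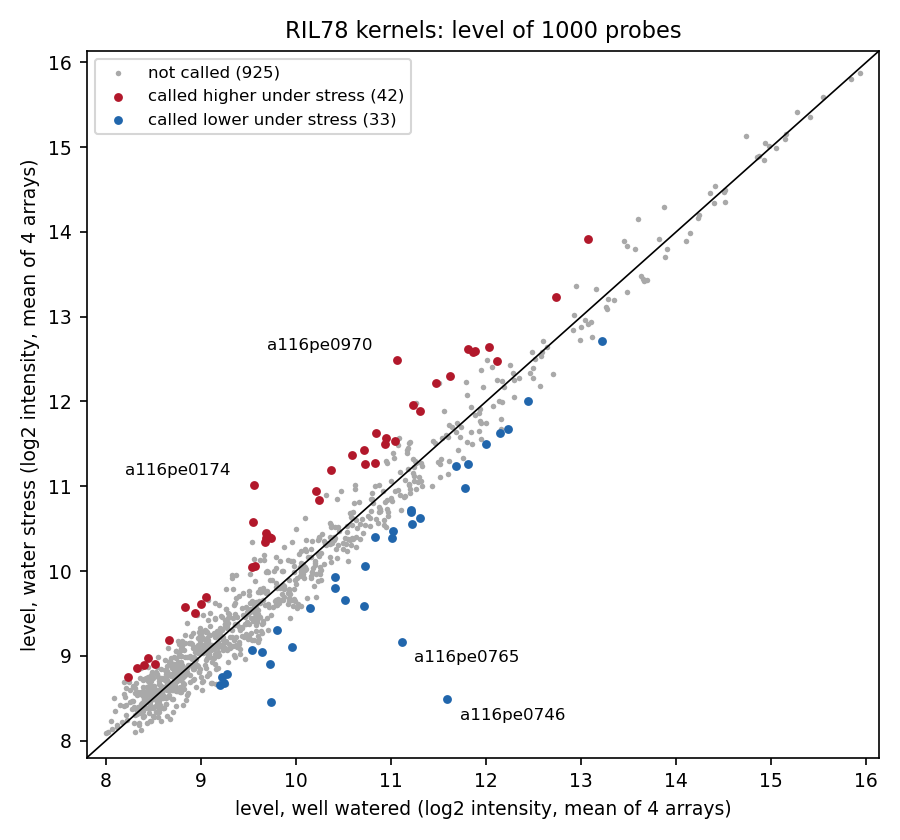
Level of each of the 1000 probes in RIL78 kernels under stress (vertical) against well watered (horizontal), as mean log2 intensity of 4 arrays. Red points are the 42 called higher and blue points the 33 called lower, the line marks equal levels, and a116pe0746 lies farthest from it, at 11.59 well watered and 8.49 under stress.

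The ratio of many RIL78 probes differed between the dye orientations. These are also replicates 1 and 2 against 3 and 4, so dye and sample differences cannot be told apart. In RIL78 the dye effect, the amount by which the ratio moved up in the Cy5 and down in the Cy3 orientation, was called for 125 probes (12.5%), 51 with the higher ratio in Cy5 and 74 with the higher ratio in Cy3. Without replicate 2, 3 or 4 the count was 50, 47 and 50. The clearest in each direction by moderated t include a116pe0553 and a116pe0096. Probe a116pe0553 read 1.87 and 1.62 with stress in Cy5 but -0.16 and -0.48 in Cy3 (dye effect 1.03, limma adjusted p = 0.000522), and a116pe0096 read -0.31 and -0.60 in Cy5 but 1.72 and 1.55 in Cy3 (dye effect -1.04, adjusted p = 0.000184). Probes a116pe0862 (dye effect 0.99) and a116pe0851 (-1.07) behaved alike, and none of these 4 was called for stress.

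Because each orientation holds 2 arrays, the dye effect cancels in the RIL78 mean, but it widens the spread. The means of the 2 orientations had one sign for 73 of the 75 called probes and for 483 of all 1000. The 75 were called on their mean over these same arrays, which favours one sign, so the agreement is not separate support. The dye effect was also called for 19 of the 75. The change was larger in size with stress in Cy3 for 46 of the 75, made up of 22 that rose and 24 that fell. The share over all 1000 probes was not counted, so this is not read as a trait of the 75.

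**Figure D3:**
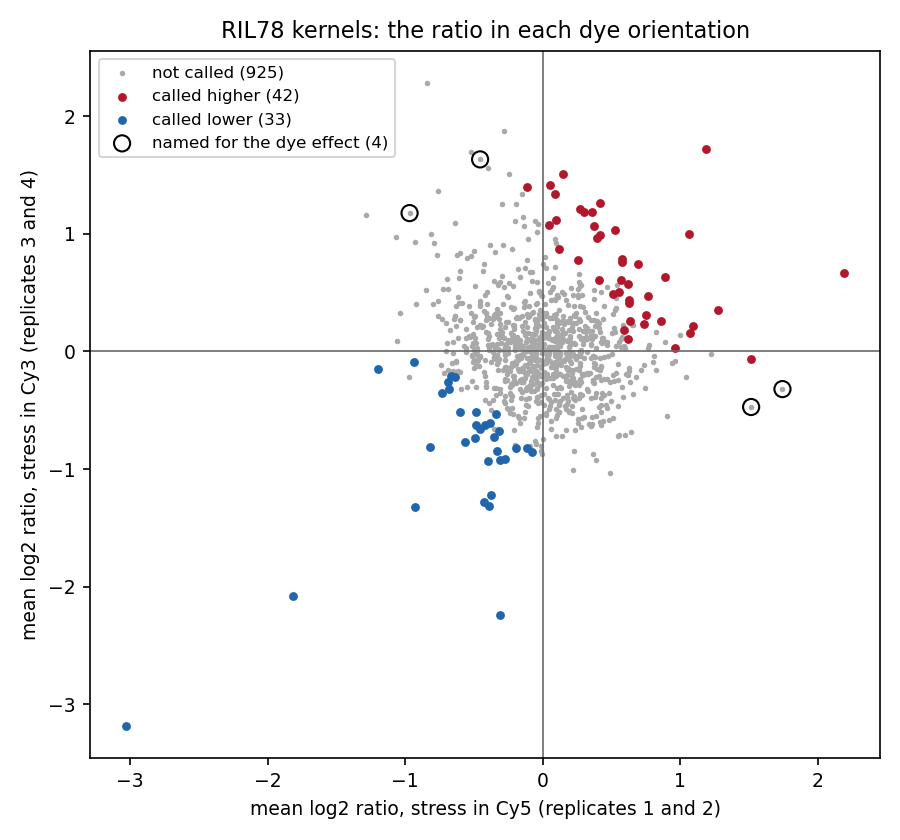
Mean log2 ratio of stress over well watered in RIL78 with stress in Cy3 (vertical, replicates 3 and 4) against stress in Cy5 (horizontal, replicates 1 and 2), 1 point per probe. The called probes (red 42 higher, blue 33 lower) lie mostly in the upper right and lower left, where both orientations have one sign, and the 4 circled probes named for the dye effect lie in the other corners.

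Signs were mixed on the 4 arrays for 12 called probes, 10 that rose and 2 that fell. In 11 of them a single array went against the rest. The widest range was that of a116pe0215, which read 0.36, -0.98, -2.14 and -2.35, so that replicate 1 opposed the other arrays. Its fitted fall was -1.28 (SE 0.26, SD 1.25, limma adjusted p = 0.00491), with adjusted p of 0.0513 and 0.0637 without replicates 3 and 4. It was above background on 0 arrays under stress and on 3 well watered. Averaged over the 4 arrays, this gives a bound of 1.87-fold lower under stress, or 0.91 in log2. The bound does not hold for replicate 1, where neither channel was above background. The fitted change was smaller in size than the bound with no background correction (-0.56) and with the deposited ratios (-0.84). Probe a116pe0498 read 0.24, -0.13, 1.76 and 1.07, high only with stress in Cy3. It rose by 0.73 (SE 0.20, adjusted p = 0.0268), and its call was lost without replicate 1, 3 or 4 (adjusted p of 0.069, 0.197 and 0.0968) with no dye term (0.109) and after scaling of the arrays' spread (0.0901).

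The number of calls depended on which array was in the fit. It was 43 without replicate 1, 79 without replicate 2, 35 without replicate 3 and 20 without replicate 4, against 75 with all. In these fits 38, 53, 33 and 19 of the calls were among the 75, and all 75 kept their sign in each. Of the 75, 63 had one sign on all 4 arrays, which favours keeping it. The 14 probes called whichever array was left out were a116pe0174, a116pe0970, a116pe0942, a116pe0507, a116pe0475, a116pe0034 and a116pe0267 among the rises and a116pe0746, a116pe0765, a116pe0649, a116pe0368, a116pe0033, a116pe0393 and a116pe0296 among the falls. Probe a116pe0267, at 0.72, 0.41, 0.69 and 0.52, rose by 0.59 (SE 0.12, SD 0.14, limma adjusted p = 0.00507). Fitted on the 4 RIL78 arrays alone with no dye term, 4 probes were called, namely a116pe0174, a116pe0942, a116pe0746 and a116pe0765. Of the 26 probes named for the response, these kept their call under every setting tried. The fit of these arrays with a dye term called 39, of which 32 were among the 75.

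**Figure D4:**
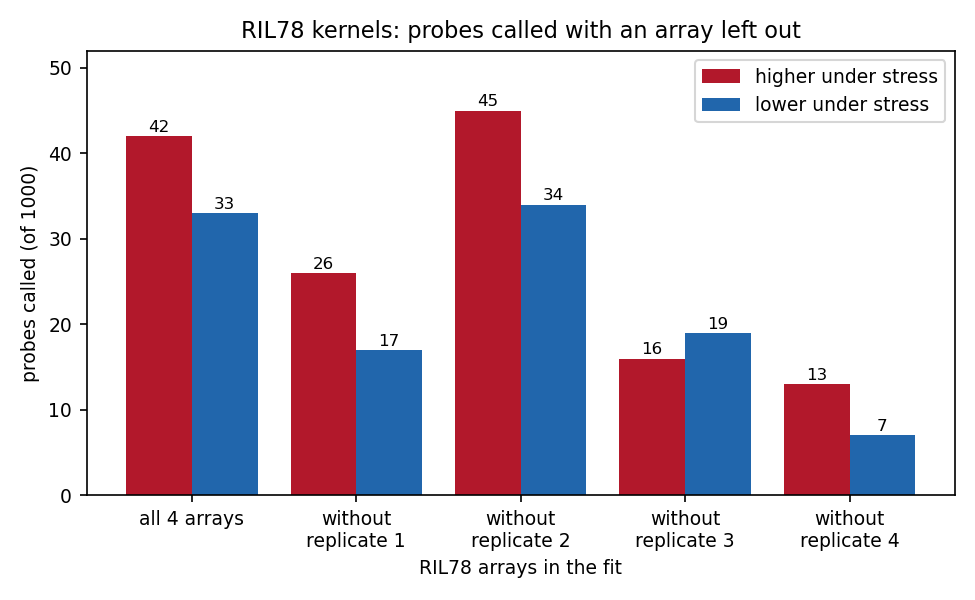
Number of probes called in RIL78 kernels (vertical, of 1000) with all 4 arrays and with each array left out (horizontal), higher in red and lower in blue. The counts run from 45 higher and 34 lower without replicate 2 down to 13 higher and 7 lower without replicate 4.

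The change in RIL78 was then set against that in the other lines, in the same fit. It differed from the mean change of the other 3 lines for 35 probes (3.50%), 18 with the higher value in RIL78 (1.80%) and 17 with the lower (1.70%). Against single lines the count was 25 for RIL60 (2.50%, with 4 higher and 21 lower, the latter 2.10%), 54 for RIL66 (5.40%, with 29 higher or 2.90% and 25 lower) and 5 for RIL68 (0.500%, with 2 higher and 3 lower). The source names of the stressed RIL66 samples read "well water stress". Their other channel is named well watered, which set the direction used. With the sign of those arrays turned, as a check, the count against RIL66 was 35 and that against the mean of the lines 21. Days in the file headers differ for RIL66 and RIL68, so for these lines day and line cannot be told apart.

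Single arrays moved these counts too. The count against the mean of the other lines was 14, 68, 11 and 7 without RIL78 replicates 1 to 4. Against RIL66 it was 35 and 29 without replicates 1 and 4, and against RIL60 it was 16 without replicate 4. Leaving out RIL60 replicate 1, 2 or 3 gave 15, 16 and 14 against RIL60. Against RIL68, the count of 5 became 27, 2 and 2 without RIL78 replicates 2, 3 and 4, 2 and 2 without RIL68 replicates 1 and 3, and 8 without RIL68 replicate 4.

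With the RIL66 direction as labelled, 2 probes, a116pe0746 and a116pe0765, differed from each of the 3 other lines. With it turned there were 4, the others being a116pe0174 and a116pe0033. For a116pe0746 the change was -3.11 in RIL78 against -0.17 ± 0.23 in RIL60, 0.34 ± 0.62 in RIL66 and 0.17 ± 0.21 in RIL68 (SD, n = 4 arrays each), so that all RIL78 arrays lay below every array of the other lines. The fitted differences were -2.94, -3.44 and -3.28, with limma adjusted p of 0.000105, 9.41e-06 and 2.97e-05. Their sizes carry the bound on the stress level of RIL78, and they set its fall against ratios of signals that lay within the background range on nearly all arrays of the other lines. In the well watered channel the probe was above background on 4 of 4 RIL78 arrays and on 0 of 4 in each other line, where its level was 9.14, 8.33 and 8.81. The stress level of RIL78 (8.49) lay beside these values. The levels are a description, with no test.

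Probe a116pe0765 showed the same pattern. It changed by -1.95 in RIL78 against -0.03 ± 0.35 in RIL60, 0.46 ± 0.47 in RIL66 and 0.28 ± 0.22 in RIL68, with differences of -1.92, -2.40 and -2.23 (limma adjusted p of 0.000105, 6.23e-06 and 2.18e-05). The well watered level was 11.12 in RIL78 and 9.18, 9.08 and 9.22 in RIL60, RIL66 and RIL68, where 2, 2 and 0 of 4 arrays were above background.

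Probe a116pe0649 went the opposite way in some lines. It fell in RIL78 and rose by 0.63 in RIL60 (limma adjusted p = 0.0175) and as labelled, by 0.79 in RIL66 (adjusted p = 0.0022), with differences of -1.75 and -1.91 (adjusted p of 4.83e-05 and 6.23e-06). In RIL68 it stood at -0.45 ± 0.34, and the difference from RIL78 did not pass (adjusted p = 0.146). With the sign of RIL66 turned, the difference from that line was -0.34 (adjusted p = 0.372).

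The rise of a116pe0174 was met by -0.70 ± 0.20 in RIL60 and -0.40 ± 0.44 in RIL68, differences of 2.16 (limma adjusted p = 0.00168) and 1.85 (adjusted p = 0.0198). In RIL66 the probe had a ratio of 1.31 ± 1.09 (adjusted p = 0.00567), above background on 1 array under stress and on 0 well watered. With the sign of RIL66 turned this is -1.31 (adjusted p = 0.00575), and the difference from RIL78 is 2.77 (adjusted p = 0.000114) in place of 0.14 (adjusted p = 0.911). The difference from RIL68 had adjusted p between 0.0502 and 0.109 without RIL78 replicate 1, 3 or 4 or RIL68 replicate 1 or 3, 0.0723 with median centring and 0.0686 after scaling of the arrays' spread.

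Other differences were smaller. Probe a116pe0475, at 0.78 in RIL78, stood at 0.31 in RIL60, -0.28 in RIL66 and -0.11 in RIL68, and differed from RIL66 by 1.06 (limma adjusted p = 0.00116), from RIL68 by 0.88 (adjusted p = 0.0198) and from the mean of the lines by 0.80 (adjusted p = 0.00578). The RIL68 difference had adjusted p of 0.0891 and 0.1 without RIL78 replicates 3 and 4 of 0.0751 and 0.0696 without RIL68 replicates 1 and 3, and of 0.0686 after scaling of the arrays' spread. Probes a116pe0267 and a116pe0120 exceeded RIL66 by 1.06 and 0.91 (adjusted p of 0.00067 and 0.00141). With the sign of RIL66 turned, the differences of a116pe0475, a116pe0267 and a116pe0120 from it were 0.50, 0.11 and 0.11, with adjusted p of 0.116, 0.765 and 0.757.

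**Figure D5:**
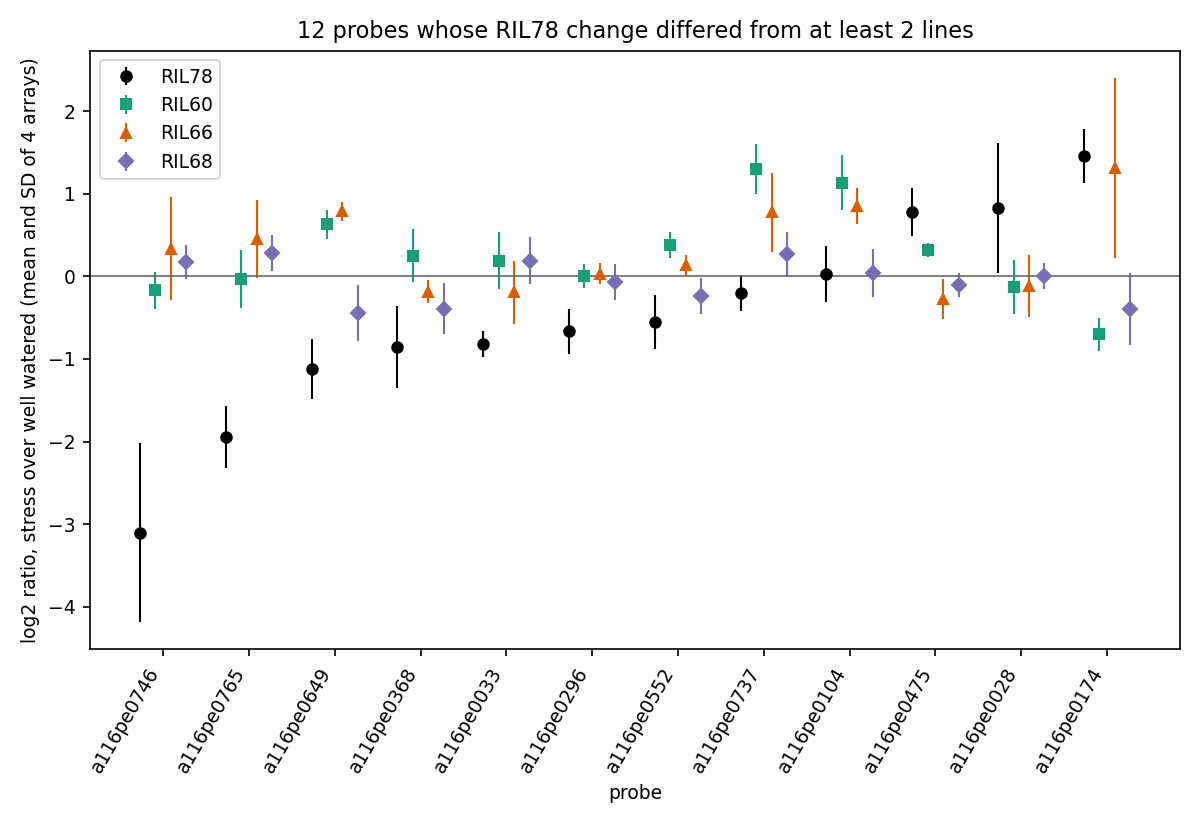
Change under stress (vertical, log2 ratio, mean and SD of 4 arrays) in RIL78, RIL60, RIL66 and RIL68 for the 12 probes whose RIL78 change differed from at least 2 of the lines (horizontal) with RIL66 as labelled, against 8 with its sign turned. Probes a116pe0746 and a116pe0765 fell to -3.11 and -1.95 in RIL78 with the other lines between -0.17 and 0.46.

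Probe a116pe0104, picked out after its values were seen, differed from both RIL60 and RIL66 without a call in RIL78. It read -0.20, 0.30, 0.34 and -0.32 in RIL78 (mean 0.03 ± 0.34) against 1.13 ± 0.33 in RIL60 and 0.85 ± 0.22 in RIL66, and these differences had limma adjusted p of 0.0049 and 0.0324. In RIL68 it stood at 0.04 ± 0.29, and the difference from RIL78 did not pass (adjusted p = 0.992). It was above background in both conditions on all arrays of RIL78, RIL60 and RIL66 but on 1 of 4 in RIL68. For a116pe0737, also among the 12, no RIL78 array was above background in either condition, so its ratio in RIL78 says nothing of a change.

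Over all 1000 probes, 29 were called in RIL60, 26 in RIL66 and 7 in RIL68, so few could be shared. Of the 75 probes called in RIL78, 66 were called in no other line (67 with the sign of RIL66 turned). The 9 others include a116pe0507 and a116pe0872, which also rose in RIL60 (0.63, limma adjusted p = 0.0146, and 1.44, adjusted p = 5.95e-05), and a116pe0434, which as labelled also rose in RIL66 (1.02, adjusted p = 0.000837, or -1.02 turned). Probe a116pe0393 also fell in RIL68 (-0.66, adjusted p = 0.0405). As labelled, a116pe0267 fell in RIL66 (-0.48, adjusted p = 0.0336). A call in one line and not in another does not show a difference: the difference itself passed for 11 of the 75 against RIL60, 33 against RIL66 and 5 against RIL68. With the sign of RIL66 turned these counts were 11, 15 and 6, so the count of 33 rests on the labelled direction. The probes that rose in RIL78 had a median change of 0.15 in RIL60, -0.10 in RIL66 and 0.13 in RIL68, and those that fell had -0.06, -0.03 and -0.11. Turned, the RIL66 medians are 0.10 and 0.03.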

How the data were processed

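The authors deposited, per the file headers, the linear intensity and local background of every spot in both channels, as a ScanArray scanner wrote them, not background subtracted. They also deposited log2 ratios; how these were made is not stated in the sources at hand. Their rows were matched to probes by slide position and sorted name, and they correlated at 0.90 to 0.99 with the RIL78 ratios computed here. Their scale is partly unknown, so they were used only for comparison.

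Background correction of the intensities was by normexp in limma with an offset of 50, followed by loess within each array at weight 0 for control and excluded spots. Loess removes any shift common to most probes. Excluded spots were dropped, both spots of each probe averaged, and signs set by the dye labels, which matched the headers on 16 of 16 arrays. Levels per channel used loess and Aquantile scaling. Median background on the RIL78 arrays ran from 570 to 1206 in Cy5 and 378 to 1299 in Cy3. The number of arrays limits the precision.

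lmFit and eBayes (limma 3.58.1 under R 4.3.3) were run over the 16 arrays, with a dye term besides the coefficient of each line, and Benjamini-Hochberg adjustment over 1000 probes. SEs are those of this fit, in which the 16 arrays share the estimate of spread of each probe, and SDs those of the arrays of a line. Estimated array weights were 0.58, 0.62, 0.95 and 0.78 on RIL78 replicates 1 to 4. On the other arrays they ran from 0.31 to 2.95. With these weights 69 probes were called in RIL78. The dye effect used a dye coefficient per line. Alternatives covered background correction, normalisation, the deposited ratios, dim probes, excluded spots, the dye term, blocks, array weights, the direction of RIL66, the threshold and each array left out. The code was checked on simulated data. Figures used matplotlib 3.10.9.

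Named were the 12 largest rises and falls called with one sign on all 4 arrays, the 2 called probes of mixed sign with the widest range, the first 3 per direction by moderated t for each difference and the first 2 per direction for the dye effect. Members, lists and rules were chosen with earlier results of these data known. Gene lists could not be used, as no probe had a gene name.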

Additional observations from a re-analysis of the deposited data

Results flagged for a closer look

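In the named responses, 2 of 26 probes had an array far from the other 3 of RIL78, where chance gives about 1 in 20. Replicate 4 of a116pe0049 stood at 1.89 and replicate 4 of a116pe0165 at -1.61, as log2 ratios of stress over well watered.

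The other results listed here are differences, in log2 change, between RIL78 and other lines that passed limma's test of the difference. Against the mean of the other 3 lines, RIL78 was higher for a116pe0970 (1.09), a116pe0028 (0.91) and a116pe0475 (0.80) and lower for a116pe0649 (-1.45), a116pe0765 (-2.18) and a116pe0746 (-3.22). The first lost its call without RIL78 replicate 1 (adjusted p = 0.0638) and after scaling of the arrays' spread (0.76, adjusted p = 0.111), and a116pe0028 without RIL78 replicate 3 or 4 (0.0515 and 0.0889) and with the sign of RIL66 turned (0.0642). With no dye term these 2 had 0.0694 and 0.0606.

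Against RIL60, RIL78 was higher for a116pe0174 (2.16), a116pe0028 (0.96) and a116pe0127 (0.94) and lower for a116pe0649 (-1.75), a116pe0765 (-1.92) and a116pe0746 (-2.94). Probe a116pe0028 lost its call without RIL78 replicate 3 or 4 or any RIL60 replicate (adjusted p from 0.0565 to 0.122). Probe a116pe0127, of mixed sign in RIL78 (0.58, -0.04, 1.28 and 1.15), lost it without RIL78 replicate 1, 3 or 4 or RIL60 replicate 1, 2 or 3 (from 0.0521 to 0.0875). It also lost it with no background correction (0.43, adjusted p = 0.0566) and with plain subtraction (0.54, adjusted p = 0.0573), and both probes lost it after scaling of the arrays' spread (0.0626 each). Blocking on the header day gave these 2 probes adjusted p of 0.0883 and 0.0954, and dropping the dye term 0.172 and 0.0627. With the sign of RIL66 turned, a116pe0028 had 0.0861.

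Against RIL66, RIL78 was higher for a116pe0267 (1.06), a116pe0475 (1.06) and a116pe0120 (0.91) and lower for a116pe0649 (-1.91), a116pe0765 (-2.40) and a116pe0746 (-3.44). Against RIL68, it was higher for a116pe0174 (1.85) and a116pe0475 (0.88) and lower for a116pe0033 (-1.005), a116pe0765 (-2.23) and a116pe0746 (-3.28). The RIL68 difference of a116pe0033 lost its call without RIL78 replicate 1, 3 or 4 or RIL68 replicate 1, 2 or 3 (adjusted p from 0.0514 to 0.117), with no background correction (-0.35, adjusted p = 0.0574) and after scaling (0.0686), which also ended those of a116pe0174 and a116pe0475. The sizes given for a116pe0746 rest on signals within the background range in stressed RIL78 kernels and on nearly all arrays of the other lines.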

How the results depend on the processing

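Of 1448 values of named probes under other settings, 1332 kept direction and side of the threshold and the others kept direction but missed it, while 0 changed sign. Response probes were mostly named for one sign on all 4 arrays, and dropping the dye term left their sizes unchanged. Few reversals could therefore arise, and the tally is not separate support. With no background correction the 75 changes had a median of 0.55 times their size. Dim signals and the 4 arrays set the limits, and loess removes any shift common to all probes. The cause of the moves below was not tested.

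Calls in the RIL78 response, 75 in all, numbered 43 with median centring, 35 with the spread of the arrays scaled, 121 with the deposited ratios, 42 with no dye term, 7 at 2-fold or more, and 39 and 4 on the RIL78 arrays alone with and without a dye term. Differences from the mean of the lines (35) numbered 53 with no background correction, 20 with median centring, 9 scaled, 14 with no dye term, 6 at 2-fold or more and 21 with the sign of RIL66 turned. Those from RIL60 (25) were 41 with the deposited ratios, 38 with array weights and 14 at 2-fold or more. Those from RIL66 (54) were 31 with median centring, 34 with no dye term, 18 at 2-fold or more and 35 with its sign turned. Those from RIL68 (5) were 10 with no background correction, 11 with plain subtraction, 2 scaled, 14 with the deposited ratios and 8 with array weights. Dye effects (125) were 62 with median centring and 33 scaled.

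With an array left out, the counts ran from 20 to 93 for the response, 7 to 68 against the mean of the lines, 14 to 35 against RIL60, 29 to 69 against RIL66, 2 to 27 against RIL68 and 47 to 103 for the dye effect. With the replicate number as a block, the calls were 79, 33, 23, 46 and 5 in the same order. For the dye effect this block could not be estimated, as it is aliased with the dye of each line. The deviations of same-numbered arrays of RIL78 and the other lines had a mean correlation over probes of -0.01. It ran from -0.29 to 0.34 and was over 0.1 in 4 of 12 pairs. Arrays of different number had a mean of 0.004, over 0.1 in 12 of 36 pairs. These few pairs cannot decide whether the numbers mark shared pools or blocks, and same-numbered RIL66 arrays carry the opposite dye orientation. A fixed day block gave 17 calls against RIL60 and could not be estimated for the other differences. A random day block, a dye coefficient per line (104 calls) the one-sign rule (63) and the turned RIL66 sign for calls shared between lines were chosen after seeing the data.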
